A study of Sus scrofa with 15 samples.

Results

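Transcripts of 8 regulators of insulin and mTOR signalling were followed in pig Longissimus muscle: the activators INSR, IRS1, AKT1 and MTOR, and the inhibitors DEPTOR, DDIT4, GRB10 and EIF4EBP1. They were taken as every array probe whose gene name or description was 1 of these genes and whose spot the scanner software marked well above background on 7 or more of 15 arrays. That gave 18 probes of the 43603 non-control probes on the array, and all 18 probes found by name met the background condition. INSR had 2 probes, IRS1 3, AKT1 1, MTOR 3, DEPTOR 1, DDIT4 2, GRB10 5 and EIF4EBP1 1.

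The pigs belonged to a pair of lines bred divergently for residual feed intake (RFI), which is the feed eaten beyond what maintenance and growth are predicted to need. The low_RFI line (RFIneg) had 7 pigs and the high_RFI line (RFIpl) had 8, 1 pig per array, all fed ad libitum and sampled at 20 kg body weight. The sex and age of the pigs are not given in the labels used here. The comparison addressed whether selection on RFI had altered muscle gene expression at this weight, and here whether transcripts of the insulin and mTOR route differed.

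Insulin binding activates the insulin receptor, which phosphorylates insulin receptor substrates, and these recruit PI3-kinase and so activate AKT. AKT relieves the brake that the TSC complex puts on mTOR complex 1, which then drives ribosome production and translation, and in muscle the same route controls glucose uptake, glycogen storage and protein accretion. Much of this control runs through phosphorylation and binding, which arrays do not measure, so the values below are transcript levels only.

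A level is the log2 of a spot's processed signal less the 75th percentile of its own array (control spots aside), so 0 is a probe at that percentile. Probes of a gene were numbered by mean level, the highest first, and the highest stood for the gene. Levels of different probes were not set against each other. Per array, 26908 to 34644 probes were well above background (61.7% to 79.5%) and no spot was saturated. The first principal component (24.1% of the variance over genes) set the pigs whose array name carries a number in 55 to 62 (n = 7, of which 3 low_RFI and 4 high_RFI) apart from those with 1 to 8 (n = 8, of which 4 low_RFI and 4 high_RFI). What these runs of numbers stand for is not given in the sources used here, and values within each are given below. Of 13 skeletal muscle markers, 11 were tested, and their summed linear level was 7602 to 9661 in low_RFI and 7555 to 9528 in high_RFI. In such bulk tissue, fewer cells of a type and less RNA per cell cannot be told apart.

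The probes are 60-base oligonucleotides, and 1 is shown for each regulator. For IRS1, MTOR, DDIT4 and GRB10 it is not the probe that stands for the gene. Of the probes shown, all but that of EIF4EBP1 have at least 1 reading frame without a stop codon as printed. Probes in the direction of the mRNA inside a coding region have such a frame. MTOR probe 1, which stands for its gene and is not shown, has none. For EIF4EBP1 no frame was open as printed, and its reverse complement is given on the last line. Capitals mark the stretch that, in the reverse complement, reads as a tyrosine codon, 4 codons of any kind and a leucine codon, the spacing of the eIF4E-binding motif of 4E-BP proteins.
INSR probe 1: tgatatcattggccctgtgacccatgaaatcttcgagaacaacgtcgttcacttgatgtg
IRS1 probe 2: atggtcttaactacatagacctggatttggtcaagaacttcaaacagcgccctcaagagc
AKT1 probe 1: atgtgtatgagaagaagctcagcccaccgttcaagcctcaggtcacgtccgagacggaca
MTOR probe 3: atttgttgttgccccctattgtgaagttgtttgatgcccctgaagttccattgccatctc
DEPTOR probe 1: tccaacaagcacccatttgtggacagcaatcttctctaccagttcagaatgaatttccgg
DDIT4 probe 2: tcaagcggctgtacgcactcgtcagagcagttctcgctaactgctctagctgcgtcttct
GRB10 probe 2: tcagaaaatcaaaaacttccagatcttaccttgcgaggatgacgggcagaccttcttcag
EIF4EBP1 probe 1: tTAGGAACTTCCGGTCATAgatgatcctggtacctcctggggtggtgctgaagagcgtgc
EIF4EBP1 probe 1, reverse complement: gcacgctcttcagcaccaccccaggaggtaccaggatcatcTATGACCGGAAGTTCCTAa

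The labelled RNA on these arrays is cRNA made with T7 polymerase, which is complementary to the mRNA and pairs with probes written in the mRNA's direction. The array design names the EIF4EBP1 probe by that symbol and describes it only as a 3′ read of a pig cDNA. The motif's spacing stands in an open frame of the reverse complement in 5.05% of all non-control probes. As printed, it stands in an open frame in 5.44%. These rates count the spacing alone, not the residues in and around it, so they do not apply to a longer reading. Of all probes, 15.2% are open only as the reverse complement. Among the 18 probes, 16 were open in at least 1 frame as printed, and the exceptions were EIF4EBP1 probe 1 and MTOR probe 1. If the reverse complement of the EIF4EBP1 probe is the strand of the mRNA, the probe as printed would not pair with such cRNA. Whether the EIF4EBP1 signal came from the mRNA of that gene was not tested. Its values, and every count, median, mean deviation and correlation that includes them, are given with that limit. Other names also rest on descriptions: IRS1 probe 1 is described as a predicted insulin receptor substrate 1-like transcript, and MTOR probe 1 as a transcript cluster resembling part of dog mTOR.

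None of the 8 regulators differed between lines after adjustment over all 4545 genes tested (limma, adjusted p of 0.648 to 0.998), against 1 gene of 4545, or 0.022%, called overall. At an unadjusted p under 0.05 there was 1 of 8 (12.5%, DEPTOR), against 7.04% of all genes (4.03% higher and 3.01% lower in low_RFI). With the run of pig numbers described above as a block, these were 3 of 8 (DEPTOR, GRB10 and EIF4EBP1), against 8.27% of all genes, with adjusted p of 0.525 to 0.586. The lines overlapped for all 8, while 0.132% of all genes had lines that did not overlap. Among the activators, 1 of 4 (INSR) had the higher mean in low_RFI, and the median difference was -0.053. Among the inhibitors, 1 of 4 (DEPTOR) had the higher mean in low_RFI, and the median difference was -0.24. Over all genes 54.5% had the higher mean in low_RFI and the median difference was 0.014; with normexp background correction that share was 44.2%.

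INSR, the receptor itself, had a level of -1.73 at lowest, -1.39 at the median and -0.49 at highest in low_RFI, against -1.87, -1.51 and -0.98 in high_RFI. The lines overlapped over most of their range, and the highest pig of all was low_RFI replicate 2. Low_RFI averaged -1.31 ± 0.46 (SD, n = 7) and high_RFI -1.47 ± 0.30 (SD, n = 8), a difference of 0.16 ± 0.19 SE (95% interval -0.24 to 0.55; limma adjusted p = 0.955). Without low_RFI replicate 2 the difference was 0.021, and with normexp background correction it was 0.060. INSR probe 2, which was well above background on 13 of 15 arrays, differed by 0.32 ± 0.29 SE and followed probe 1 across pigs (Pearson r = 0.76, Spearman rho = 0.74). Its sign turned, at -0.10, with normexp background correction.

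IRS1, the docking protein that the receptor phosphorylates, ran from 3.72 to 4.60 with a median of 4.02 in low_RFI, against 3.85 to 4.56 with a median of 4.16 in high_RFI. Low_RFI pigs stood at both ends of the order: replicates 4 and 3 were the highest of all 15 pigs and replicates 1 and 7 the lowest. The difference was -0.088 ± 0.16 SE (95% interval -0.43 to 0.26; limma adjusted p = 0.986), and the sign turned, at 0.0039, with normexp background correction. IRS1 probes 2 and 3 differed by 0.032 and 0.015, so that the probes of this gene shared no direction, though both followed probe 1 across pigs (r = 0.67 and 0.70).

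AKT1, the kinase that passes the signal on from PI3-kinase, ran from 0.086 to 0.77 with a median of 0.32 in low_RFI, against 0.22 to 0.55 with a median of 0.40 in high_RFI. The high_RFI pigs lay wholly inside the low_RFI range. Its difference was -0.019 ± 0.096 SE (95% interval -0.22 to 0.18; limma adjusted p = 0.998), and it turned positive, to at most 0.026, when low_RFI replicate 1 or 7 or high_RFI replicate 2 was left out. AKT1 was the steadiest of the 8: only 20.4% of all genes had a smaller SD within lines.

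MTOR, the kinase at the core of both mTOR complexes, ran from 2.01 to 2.46 with a median of 2.25 in low_RFI (n = 6), against 2.13 to 2.87 with a median of 2.33 in high_RFI (n = 8). High_RFI replicate 1 stood above all other pigs. The difference was -0.13 ± 0.11 SE (95% interval -0.37 to 0.11; limma adjusted p = 0.923), and -0.059 without that pig. The spot of low_RFI replicate 4 was flagged as non-uniform by the scanner software and left out here. Its level would have been 4.17, and with it the difference turned to 0.15 ± 0.26 SE; the authors' deposited values, which hold that spot, gave 0.14. MTOR probe 2 followed probe 1 across 14 pigs (r = 0.89) and differed by -0.15 ± 0.094 SE. MTOR probe 3 differed by -0.026 and showed no detectable correlation with probe 1 (r = 0.086, rho = 0.21, permutation p = 0.768 for r).

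**Figure D1:**
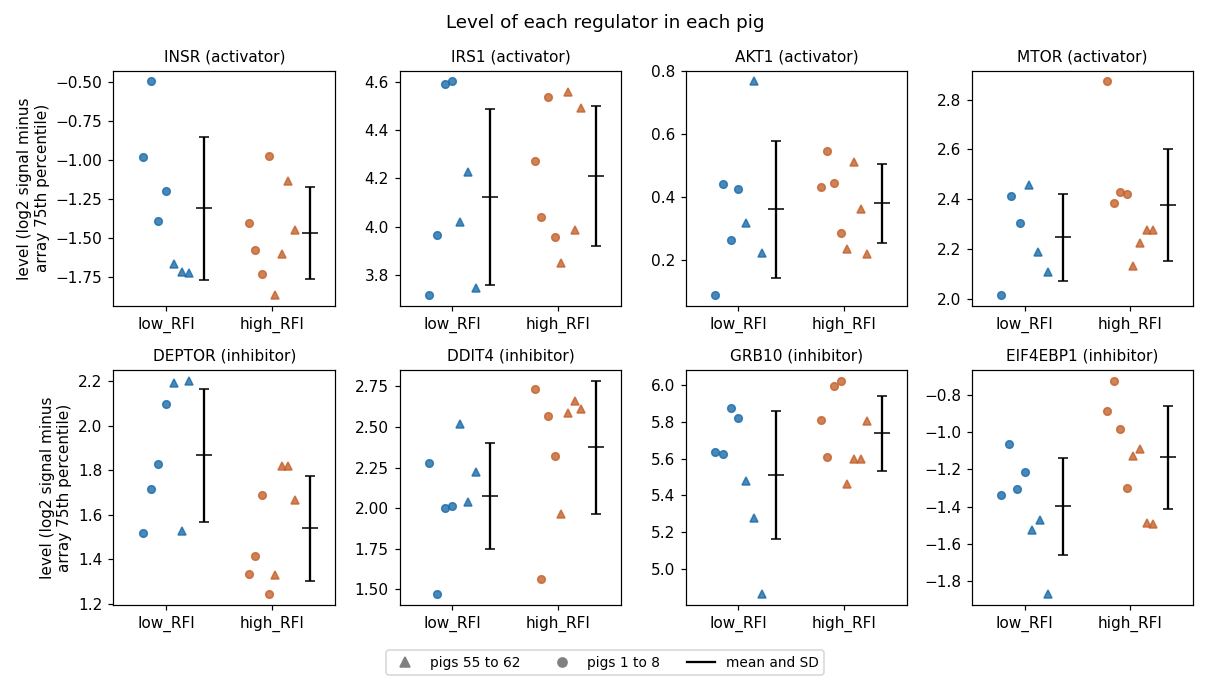
Level of each regulator in each pig (vertical axis, log2 signal minus the array's 75th percentile), activators in the upper row and inhibitors in the lower row, low_RFI left of high_RFI; triangles are pigs 55 to 62, circles pigs 1 to 8, and bars show mean and SD. The lines overlap in all 8 panels, and for DEPTOR 4 low_RFI pigs lie above the highest high_RFI pig at 1.82, the nearest of them by a narrow margin.

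DEPTOR, which binds mTOR inside both complexes and inhibits it, was the regulator with an unadjusted p under 0.05 in the fit on line alone. Its level was 1.52 at lowest, 1.83 at the median and 2.20 at highest in low_RFI, against 1.24, 1.54 and 1.82 in high_RFI. Low_RFI replicates 7, 5, 4 and, by a narrow margin, 3 lay above every high_RFI pig, and high_RFI replicates 4, 5, 1 and 2 lay below every low_RFI pig. Low_RFI averaged 1.87 ± 0.30 (SD, n = 7) and high_RFI 1.54 ± 0.24 (SD, n = 8), a 1.26-fold higher mean in low_RFI. The low_RFI pig was higher in 46 of 56 pairs (difference 0.33 ± 0.13 SE, 95% interval 0.043 to 0.62, limma adjusted p = 0.648). By p it ranked 188 of 4545 genes. Each slide held 2 high_RFI pigs and 1 or 2 low_RFI pigs. The difference was 0.32 within pigs 55 to 62 and 0.37 within pigs 1 to 8, and it was positive within each of the 4 slides, from 0.043 to 0.48. With 1 pig left out at a time it ran from 0.27 to 0.39, with an unadjusted p of 0.012 to 0.064; it was above 0.05 without low_RFI replicate 4, 5 or 7 or high_RFI replicate 1 or 4.

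DDIT4, also called REDD1, is induced by stress, fasting and glucocorticoids and lowers mTOR complex 1 activity through the TSC complex. It ran from 1.47 to 2.51 with a median of 2.04 in low_RFI, against 1.57 to 2.73 with a median of 2.58 in high_RFI. Replicate 2 of each line was its lowest pig, and 5 of the 8 high_RFI pigs lay above every low_RFI pig. The difference was -0.30 ± 0.18 SE (95% interval -0.69 to 0.088; limma adjusted p = 0.817). It had the same sign within both runs of pig numbers (-0.20 within pigs 55 to 62 and -0.36 within pigs 1 to 8). Among the 4 slides it ran from -0.91 to 0.51. Leaving out single pigs moved it between -0.42 (without high_RFI replicate 2) and -0.20 (without low_RFI replicate 2). DDIT4 probe 2 differed by -0.22 and followed probe 1 closely (r = 0.91).

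GRB10, an adaptor that binds the insulin and IGF-1 receptors and inhibits their signalling, ran from 4.86 to 5.87 with a median of 5.62 in low_RFI, against 5.46 to 6.02 with a median of 5.71 in high_RFI. The medians lay close together, and low_RFI replicates 7 and 6 were the lowest pigs of all. The difference was -0.23 ± 0.14 SE (95% interval -0.53 to 0.073; limma adjusted p = 0.821), and -0.12 without low_RFI replicate 7. Among slides the difference ran from -0.56 to 0.10. All 5 GRB10 probes had the lower mean in low_RFI, by -0.053 to -0.23, and none passed over the 31984 probes tested. Over all probes 0 of 31984 were called, and 6.64% had an unadjusted p under 0.05.

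EIF4EBP1 encodes 4E-BP1, which holds the cap-binding protein eIF4E until mTOR complex 1 phosphorylates it. Its probe ran from -1.87 to -1.06 with a median of -1.34 in low_RFI, against -1.49 to -0.73 with a median of -1.11 in high_RFI. High_RFI replicates 2, 1 and 3 lay above every low_RFI pig. The difference was -0.26 ± 0.14 SE (95% interval -0.55 to 0.027; limma adjusted p = 0.759). It was negative within both runs (-0.32 within pigs 55 to 62 and -0.26 within pigs 1 to 8) and within all 4 slides, and -0.18 without low_RFI replicate 7.

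**Figure D2:**
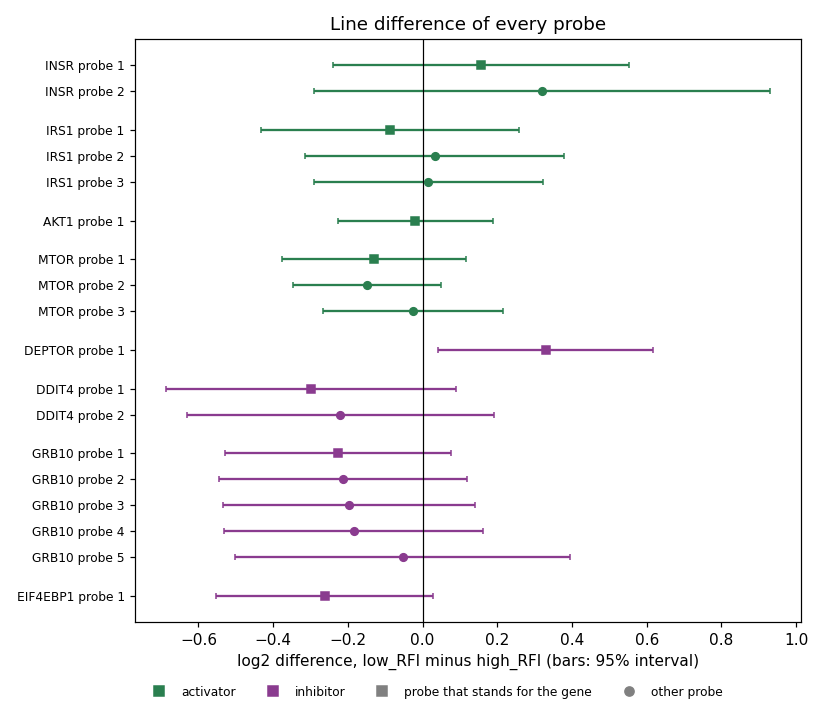
Difference of every probe, low_RFI minus high_RFI (horizontal axis, log2, bars 95% intervals), green for activators and purple for inhibitors; squares are the probes that stand for a gene and circles the others. The interval leaves out 0 for the DEPTOR probe alone, and the 5 GRB10 probes all lie left of 0.

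The probes of each gene were compared across pigs. Of the 10 pairings of a second probe with its gene's first, 9 had Benjamini-Hochberg adjusted permutation p-values under 0.05, with r of 0.56 to 0.93 and rho of 0.56 to 0.91. GRB10 probe 2 gave r = 0.93 and DDIT4 probe 2 gave r = 0.91, each with the smallest p that the permutations could give (1e-05). Without the 2 pigs farthest from the median these were 0.81 and 0.84. Within pigs 55 to 62 and within pigs 1 to 8, GRB10 probe 2 gave 0.87 and 0.97, and DDIT4 probe 2 gave 0.72 and 0.97. The pairing with GRB10 probe 3 was the weakest of the 9 and dropped to 0.38 without such pigs. GRB10 probe 5, at r = 0.67 over all pigs, gave 0.37 within pigs 55 to 62 and 0.33 within pigs 1 to 8. MTOR probe 3 gave -0.093 and -0.40 in those runs, and was the 1 pairing that did not pass.

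**Figure D3:**
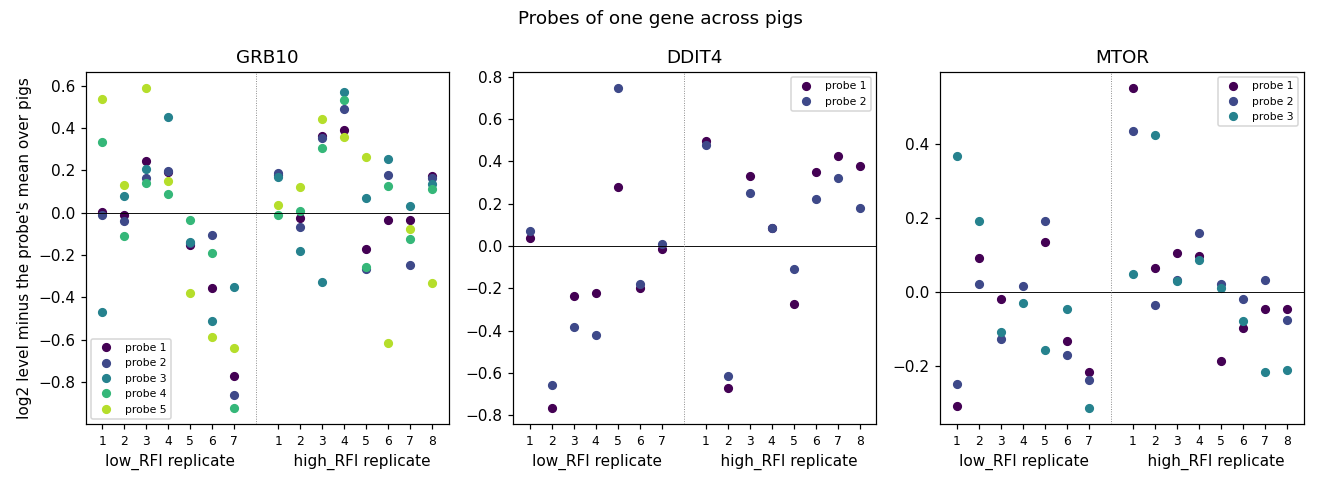
Level of each probe minus its mean over pigs (vertical axis, log2) for GRB10, DDIT4 and MTOR, low_RFI replicates left of high_RFI replicates in each panel. The 5 GRB10 probes all lie below their means in low_RFI replicate 7, both DDIT4 probes are low in replicate 2 of each line, and MTOR probe 3 departs from MTOR probes 1 and 2.

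Between runs of pig numbers, none of the 8 regulators passed after adjustment, against 167 of 4545 genes (3.67%; 2.27% higher and 1.41% lower in pigs 55 to 62). At an unadjusted p under 0.05 there were 3 of 8 (37.5%), against 22.8% of all genes. GRB10 was 5.44 ± 0.30 (SD, n = 7) in pigs 55 to 62 and 5.80 ± 0.16 (SD, n = 8) in pigs 1 to 8, a difference of -0.38 ± 0.11 SE (limma adjusted p = 0.065). EIF4EBP1 was -1.44 ± 0.26 in pigs 55 to 62 and -1.10 ± 0.22 in pigs 1 to 8, a difference of -0.36 ± 0.10 SE (limma adjusted p = 0.068). With slide as a random block both passed (-0.38, adjusted p = 0.0425, and -0.35, adjusted p = 0.0468). INSR differed by -0.37 ± 0.17 SE (adjusted p = 0.205).

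All 5 GRB10 probes were lower in pigs 55 to 62, and GRB10 probe 5 passed over all probes (-0.64, limma adjusted p = 0.032), where 2.28% of probes were called. DEPTOR and DDIT4 had the higher mean in pigs 55 to 62, by 0.21 (adjusted p = 0.338) and 0.23 (adjusted p = 0.458). The remaining activators differed by -0.091 (IRS1), 0.0094 (AKT1) and -0.17 (MTOR), with adjusted p of 0.767, 0.963 and 0.374. All 4 leukocyte markers tested were higher in pigs 55 to 62 (median difference 0.66), and 1 of them, LCP1, an actin-bundling protein of leukocytes, passed (1.43, adjusted p = 0.043). The summed linear level of these markers was 3.47 to 12.5 in pigs 55 to 62 and 2.63 to 5.09 in pigs 1 to 8. In the direction of GRB10 and EIF4EBP1, 10 of 11 skeletal muscle markers (median -0.088) had the lower mean in pigs 55 to 62, MYH7 (0.32) being the exception. So did 4 of 4 fibroblast markers (median -0.26). Of the adipocyte markers 4 of 6 were higher in pigs 55 to 62 (median 0.18), and of the endothelial markers 2 of 6 (median -0.018). None of the genes in these lists passed between runs. Over all genes, 1883 of 4545 were higher in pigs 55 to 62, and the median difference was -0.045. The summed muscle level was 7555 to 9156 in pigs 55 to 62 and 7602 to 9661 in pigs 1 to 8. The summed fibroblast level was 82.9 to 114 in pigs 55 to 62 (n = 6) and 90.2 to 150 in pigs 1 to 8 (n = 8). The part of these markers in the run differences was not tested.

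The line difference did not pass a test of difference between runs for any of the 8 (limma interaction term, adjusted p of 0.899 to 0.991), nor for any of all 4545 genes (0%), where 5.57% had an unadjusted p under 0.05. INSR came nearest: low_RFI minus high_RFI was -0.19 within pigs 55 to 62 and 0.41 within pigs 1 to 8, an interaction of -0.60 ± 0.31 SE (adjusted p = 0.899). IRS1 also had opposite signs, at -0.22 within pigs 55 to 62 and 0.017 within pigs 1 to 8. So did AKT1 (0.10 and -0.12) and MTOR (0.024 and -0.28), in that order of runs. DEPTOR, DDIT4, GRB10 and EIF4EBP1 kept their sign. The share of all genes that did so was not counted, so these signs do not set inhibitors apart from activators.

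**Figure D4:**
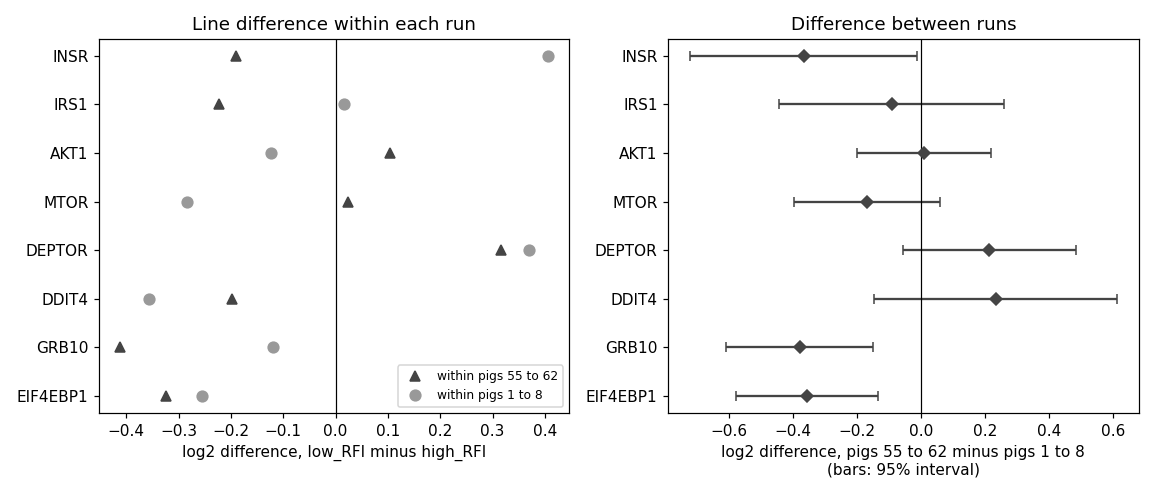
Left, difference of each regulator within each run of pig numbers (low_RFI minus high_RFI, log2; triangles pigs 55 to 62, circles pigs 1 to 8); right, difference between runs (pigs 55 to 62 minus pigs 1 to 8, log2, bars 95% intervals). INSR, IRS1, AKT1 and MTOR have opposite signs in the runs, with IRS1 at 0.017 within pigs 1 to 8 and MTOR at 0.024 within pigs 55 to 62. DEPTOR, DDIT4, GRB10 and EIF4EBP1 have the same sign in both. The share of all genes with the same sign in both was not counted. No regulator passed a test of difference between runs in its line difference. GRB10 and EIF4EBP1 lie lower in pigs 55 to 62.

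Across pigs, activators and inhibitors were also described apart as a pig's mean deviation from each gene's mean over all pigs. For the 14 pigs with all 4 activators measured, the activators' mean deviation ran from -0.28 to 0.21 with a median of -0.042 in low_RFI (n = 6), against -0.28 to 0.18 with a median of 0.035 in high_RFI (n = 8). In the same pigs, the inhibitors' mean deviation ran from -0.23 to 0.090 with a median of -0.096 in low_RFI, against -0.17 to 0.24 with a median of 0.072 in high_RFI. Low_RFI replicate 4, left out there for its flagged MTOR spot, had an inhibitors' mean deviation of 0.10, the highest of its line. With that pig the low_RFI median would be -0.053, the value of replicate 1. Both measures overlapped between lines. Low_RFI replicate 7 had the highest DEPTOR and the lowest GRB10 and EIF4EBP1 of all pigs. Low_RFI replicate 2 had the highest INSR and the lowest DDIT4, and high_RFI replicate 1 had the highest MTOR and DDIT4.

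Pairs of the 8 transcripts were then compared across pigs. Over the 28 pairs of regulators none passed Benjamini-Hochberg adjustment (smallest adjusted permutation p = 0.366). Among activator pairs r had a median of 0.20 (-0.19 to 0.36, 4 of 6 positive), and among pairs of an activator with an inhibitor 0.20 (-0.26 to 0.52, 10 of 16 positive). Among inhibitor pairs the median was -0.080, with both extremes of the whole set: GRB10 with EIF4EBP1 at r = 0.55 (rho = 0.41) and DEPTOR with EIF4EBP1 at r = -0.55 (rho = -0.47). Without the 2 pigs farthest from the median these were 0.31 and -0.25. Within pigs 55 to 62 and within pigs 1 to 8, GRB10 with EIF4EBP1 gave 0.60 and -0.30, and DEPTOR with EIF4EBP1 gave -0.64 and -0.28. IRS1 with GRB10 gave r = 0.52 (unadjusted permutation p = 0.039), 0.66 within pigs 55 to 62 and 0.52 within pigs 1 to 8.

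The regulators differed in how much they varied. By SD within lines, INSR and DDIT4 exceeded 74.0% and 73.0% of all genes, IRS1 65.3%, and GRB10, EIF4EBP1 and DEPTOR 56.0%, 52.9% and 52.2%. MTOR, at 32.8%, and AKT1, the lowest as given above, were the steadiest. The place of MTOR rests on leaving out the flagged spot of low_RFI replicate 4. With non-uniform spots kept, the SE of its line difference was 0.26, against 0.11 without them.

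Other genes of the route were taken from wider lists. Of 31 listed genes around the insulin receptor, PI3-kinase and AKT, 14 were measured by name, 5 had the higher mean in low_RFI, and none passed between lines (median -0.015; 1 at an unadjusted p under 0.05). SOCS3, a feedback inhibitor of cytokine and insulin signalling, had the smallest p of this list. Low_RFI averaged -0.36 ± 1.03 (SD, n = 7) and high_RFI 0.64 ± 0.81 (SD, n = 8), a difference of -0.997 ± 0.43 SE (limma adjusted p = 0.687). Next were FOXO1, a transcription factor that AKT keeps out of the nucleus (0.18, adjusted p = 0.884), and PTPN2, a tyrosine phosphatase that acts on the insulin receptor (0.14, adjusted p = 0.885). Between runs 2 genes of the list passed, both lower in pigs 55 to 62: FOXO3, a relative of FOXO1 (-0.49, adjusted p = 0.029), and PHLPP1, a phosphatase of AKT (-0.41, adjusted p = 0.029).

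Of 35 genes of the mTOR complexes and their inputs, 8 were measured by name, 4 had the higher mean in low_RFI, and none passed in either comparison (median -0.0056 between lines; 0 there at an unadjusted p under 0.05). PRKAA2, the catalytic alpha 2 subunit of AMPK, which restrains mTOR complex 1, had the smallest p (0.19 ± 0.096 SE, adjusted p = 0.750). PRR5, a subunit of mTOR complex 2, differed by 0.24 (adjusted p = 0.967) and CASTOR1, an arginine sensor upstream of mTOR complex 1, by -0.078 (adjusted p = 0.982). Of 17 targets of mTOR complex 1 and cap-binding factors, 8 were measured, 3 had the higher mean in low_RFI and none passed in either comparison (median -0.040 between lines; again 0 at an unadjusted p under 0.05). ULK1, the autophagy kinase that mTOR complex 1 holds inactive, differed by -0.17 (adjusted p = 0.885), the initiation factor EIF4G1 by 0.20 (adjusted p = 0.949) and the kinase EEF2K by 0.15 (adjusted p = 0.955).

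Glucocorticoids and fasting induce DDIT4, and 13 of 18 other genes listed around the response to them were measured. Of these 2 had the higher mean in low_RFI (median -0.16), and none passed between lines, adjusted or not. NR3C1, the glucocorticoid receptor, differed by -0.21 ± 0.12 SE (adjusted p = 0.789), the uncoupling protein UCP3 by -0.45 (adjusted p = 0.885) and PDK4, which holds back pyruvate oxidation, by -0.66 ± 0.61 SE (adjusted p = 0.938). NR3C1 was the 1 gene of this list that passed between runs, at -0.34 in pigs 55 to 62 relative to pigs 1 to 8 (adjusted p = 0.043). Lists of adipocyte, endothelial and fibroblast markers held no gene that passed between lines, and no erythrocyte marker was measured by name. At an unadjusted p under 0.05 there were 1 adipocyte and 1 fibroblast gene, named after their values were seen: AQP7, a glycerol channel of adipocytes (-1.14 ± 0.31 SE, adjusted p = 0.348, low_RFI higher in 5 of 56 pairs), and LUM, a matrix proteoglycan (0.45 ± 0.21 SE, adjusted p = 0.703).

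**Figure D5:**
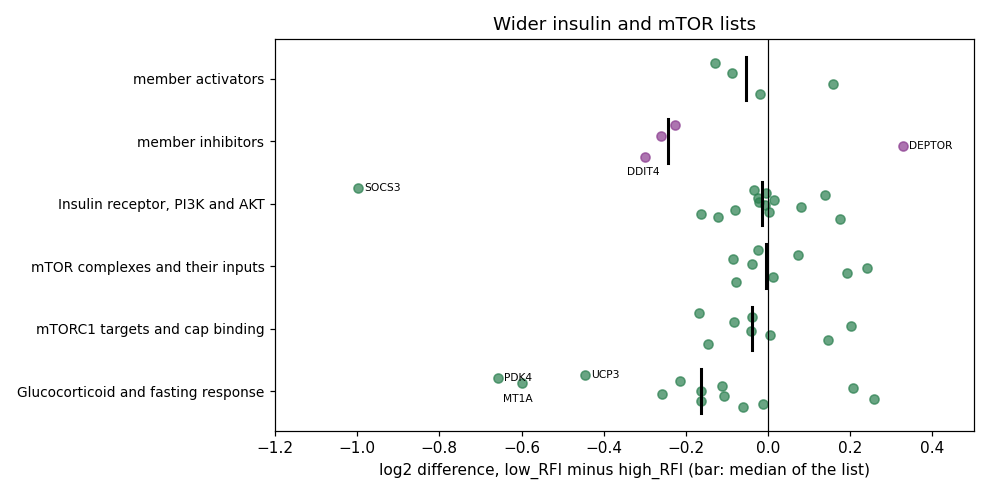
Difference of each measured gene, low_RFI minus high_RFI (horizontal axis, log2), for the 4 activators, the 4 inhibitors and the wider lists, with a black bar at each list's median. SOCS3 at -0.997 lies farthest from 0, and the bars of the inhibitors (-0.24) and of the glucocorticoid and fasting list (-0.16) lie left of the others.

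The genes whose levels ran most alike across pigs are given as a description, since among 4545 genes the best partner of a gene had a median r of 0.86. INSR ran with CPEB4 (r = 0.82) and KDM5A (0.81), IRS1 with AKR1C1 (0.75) and MTCH1 (0.74), AKT1 with RAD23B (0.85) and MPST (0.81), and MTOR with FAM210B (0.88) and ARAF (0.85). DEPTOR ran with ARL6IP5 (0.84) and TTL (0.82), DDIT4 with DOPEY1 (0.84) and UROC1 (0.80), GRB10 with ZXDC (0.83) and SYN1 (0.78), and EIF4EBP1 with RMDN1 (0.89) and PITX3 (0.87). These are over 15 pigs, or 14 for MTOR, which share their slides and runs. Except for those of MTOR and EIF4EBP1, the best partners lay below that median.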

How the data were processed

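Total RNA of each pig's Longissimus muscle (150 ng) was labelled with Cy3 and hybridised to a 1-colour Agilent array. Per the file headers, the deposited scanner files hold the intensity of each spot as Feature Extraction 10.7.3.1 gave it (its protocol was GE1_107_Sep09), background-subtracted and not normalized between arrays. Other columns, per the file headers, mark spots that are saturated, non-uniform or well above background. The authors' deposited table holds log2 values, made with R 2.10.0 per the submitters' processing notes. On the files, they equal the log2 signal of 29364 spots centred on their median in each array (largest difference 4.93e-08).

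Here the log2 signal was scaled to each array's 75th percentile instead, leaving out control and non-uniform spots. A probe was tested when well above background on at least 7 of 15 arrays with at least 4 values per line (31984 of 43603 probes). Names came from the files and from RefSeq genes of Sscrofa11.1: 11893 probes had 1 symbol and 316 had 1 LOC name. The other 31394 had several names or none, so list members on such probes were not analysed here. Lines (low_RFI minus high_RFI) were compared with limma 3.58.1 in R 4.3.3, two-sided, with Benjamini-Hochberg adjustment over all genes or probes and calls at an adjusted p under 0.05. Runs of pig numbers were compared with line in the model. Correlations had two-sided permutation p-values from 100000 resamples. Versions 1.5.0 of statmod and 1.17.8 of data.table were used. The fit was also run on simulated data with known changes. How often it recovers changes as small as those of the regulators is not reported here.

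The number of pigs limits the precision: a gene's median standard error was 0.13. The regulators, lists, tests and comparisons were chosen with earlier results of these data known. The text names the 8 regulators. From each of the 4 wider lists (cell type markers apart) it names the genes past the threshold in either comparison and, where fewer than 3 passed, those of smallest p between lines up to 3. It also names each regulator's 2 most alike genes. Alternatives covered background correction (normexp, offset 50), normalization, deposited values, dim and non-uniform spots, slide, replicate number, run, model, weights, probes per gene, and single pigs left out.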

Additional observations from a re-analysis of the deposited data

Results flagged for a closer look

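A gap between the most extreme pig and the next that was large against its line's range (Dixon's 95% critical value, 0.568 for 7 pigs and 0.526 for 8) was seen in 5 of 36 combinations of probe and line. Chance gives such a gap in about 1 in 20 independent groups. These combinations are not independent, since probes of a gene share their pigs. GRB10 probes 2 and 4 followed GRB10 probe 1 at r = 0.93 and 0.89, and MTOR probe 2 followed MTOR probe 1 at r = 0.89. The count can therefore not be set against that rate. Low_RFI replicate 7 was lowest for GRB10 probe 2, at 1.33 with the next pig at 2.05, and for GRB10 probe 4, at -1.35 with the next at -0.61. It was also the lowest low_RFI pig for GRB10 probe 1, without passing the critical value. High_RFI replicate 1 was highest for MTOR probe 1, at 2.87 with the next high_RFI pig at 2.43, and for MTOR probe 2, at 0.83 with the next at 0.55. High_RFI replicate 2 was highest for MTOR probe 3, at -1.05 with the next at -1.38.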

How the results depend on the processing

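No regulator passed between lines under any alternative tried, after adjustment. At an unadjusted p under 0.05 there were 1 to 3 over the settings (3 with run as a block; DEPTOR each time) and 0 to 2 with 1 pig left out. Over the 14 alternative settings, DEPTOR stayed at 0.30 to 0.37 (adjusted p of 0.418 to 0.808), INSR at 0.060 to 0.24, DDIT4 at -0.38 to -0.22, GRB10 at -0.25 to -0.16, EIF4EBP1 at -0.31 to -0.21 and AKT1 at -0.043 to -0.0083. The sign turned with normexp background correction for IRS1 (0.0039), INSR probe 2 (-0.10) and IRS1 probe 3 (-0.10), with slide as a fixed block for MTOR probe 3 (0.010), and for MTOR with the deposited values (0.14) or with non-uniform spots kept (0.15). With the mean of a gene's probes MTOR gave -0.23, since the pig without the bright first spot then rests on its dimmer probes. With 1 pig left out at a time, AKT1 ran from -0.087 to 0.026 (0.026 without low_RFI replicate 1, 0.0037 without low_RFI replicate 7 and 0.0045 without high_RFI replicate 2), INSR from 0.021 to 0.23, IRS1 from -0.17 to -0.019, MTOR from -0.17 to -0.059, DDIT4 from -0.42 to -0.20, GRB10 from -0.29 to -0.12 and EIF4EBP1 from -0.32 to -0.18.

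The count of genes past the threshold between lines, 1, became 0 with normexp correction, median normalization, the deposited values, no filter on dim probes, or slide, replicate number or run as a fixed block, and ran from 0 to 2 with 1 pig left out. Between runs it was 167, against 80 with normexp correction and 292 with slide as a random block, which also called 2 of the 8 regulators (GRB10 at -0.38 and EIF4EBP1 at -0.35). The labels give both lines replicates 1 to 7. Same-numbered pigs deviated together (r over 0.1) for 5 of 7 numbers, with r of -0.036 to 0.31, and were not taken as pairs. They were always in the same run of pig numbers, which deviations from line means do not take out. Pairing and run were therefore not separated by these r values, and the replicate block takes in both. With the replicate block DEPTOR gave 0.35, EIF4EBP1 -0.31, DDIT4 -0.27, GRB10 -0.22, INSR 0.16, MTOR -0.14, IRS1 -0.047 and AKT1 -0.043, with 2 regulators (DEPTOR and EIF4EBP1) at an unadjusted p under 0.05. The causes of these shifts were not tested unless stated. Dim signal limits INSR probe 2 most, since 2 of 15 arrays were not well above background.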
